A study of Mus musculus with 18 samples.

Results

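The genes described are 42 ribosome biogenesis and nucleolar genes that are known targets of the transcription factor Myc, with a small set of polyamine and other Myc-linked genes. They were taken by name from the deposited tables of mouse thymocytes and joined by Ensembl identifier to the count table, which lists 22619 genes; all 42 were found and all 42 entered every test. Wild-type mouse thymi were grafted for 28 days. DN3 thymocytes, an early stage with neither CD4 nor CD8 at which the T-cell receptor beta locus rearranges, and DP thymocytes, the later stage with both, were sorted by flow cytometry and profiled by bulk RNA-seq from oligo-dT bead RNA. The 4 groups were DN3 turnover (n = 4 libraries), DN3 autonomy (n = 5), DP turnover (n = 4) and DP autonomy (n = 5). In work on thymus grafts, turnover is the state in which incoming progenitors replace the graft's thymocytes, and autonomy the state in which the thymus sustains its own thymocytes when such progenitors are lacking. All 4 groups share the wild-type donor thymus and the graft age; the labels do not describe the hosts or how each state was set up. The labels do not say whether libraries of a group came from separate animals, so the p-values measure the spread between these libraries, which may be technical.

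Ribosomes are built in the nucleolus. RNA polymerase I transcribes the ribosomal RNA precursor, small nucleolar RNPs guide its chemical modification (the box C/D class for methylation, the box H/ACA class for pseudouridylation), and sets of assembly factors fold and cleave it into the small and large subunits. Myc is a transcription factor that binds E-box DNA and drives many of these genes in growing cells, along with the polyamine pathway that feeds the hypusine modification of Eif5a. Many of the gene roles given below were worked out in yeast or human cells. In the thymus, cells grow and divide after the DN3 stage and most DP cells are small and resting.

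Total counts ran from 5032273 to 24191044 per library. Levels are given as CPM, read counts scaled to a common library size with TMM factors, and CPM is a share of a library, so it does not measure RNA per cell. The DN3 marker Il2ra lay between 257 and 633 CPM in DN3 libraries, and in DP it was 1.26 to 14.8 CPM in turnover and 17.2 to 41.2 CPM in autonomy, without overlap. The DP marker Cd8a lay between 2053 and 2328 CPM in DP libraries, and in DN3 its median was 7.11 CPM in turnover (2.53 to 385 CPM) and 63.6 CPM in autonomy (39.0 to 71.7 CPM). The DN3 turnover library RP1141B stood apart in its group: its Cd4 level was 135.0 CPM against a group median of 1.57 CPM, and its summed level of the 6 DP markers was 2410 CPM against 787 to 1047 CPM in the other 3. The calls lost without this library are named below.

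The 42 genes together took a larger share of DN3 libraries than of DP libraries. Their summed level in DN3 turnover was 15410 CPM in RP1140A, 14670 in RP1140B, 18730 in RP1141A and 15700 in RP1141B. In DN3 autonomy it was 22660 CPM in RP1133, 21820 in RP1134, 18880 in RP1135, 25740 in RP1137 and 26730 in RP1138. In DP turnover it lay between 3719 and 4326 CPM and in DP autonomy between 4411 and 5284 CPM. The autonomy libraries were all above the turnover libraries in both stages, with RP1135 in DN3 autonomy and RP1141A in DN3 turnover nearly level, and no DP library reached a DN3 library. In DP the lowest autonomy library, RP1136 at 4411 CPM, was close to the highest turnover library, RP1140B at 4326 CPM. Abundant genes weigh most in such sums. In DN3 turnover Npm1, Ncl and Eif5a averaged 2366, 2049 and 2028 CPM, within a mean sum of 16130 CPM.

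**Figure D1:**
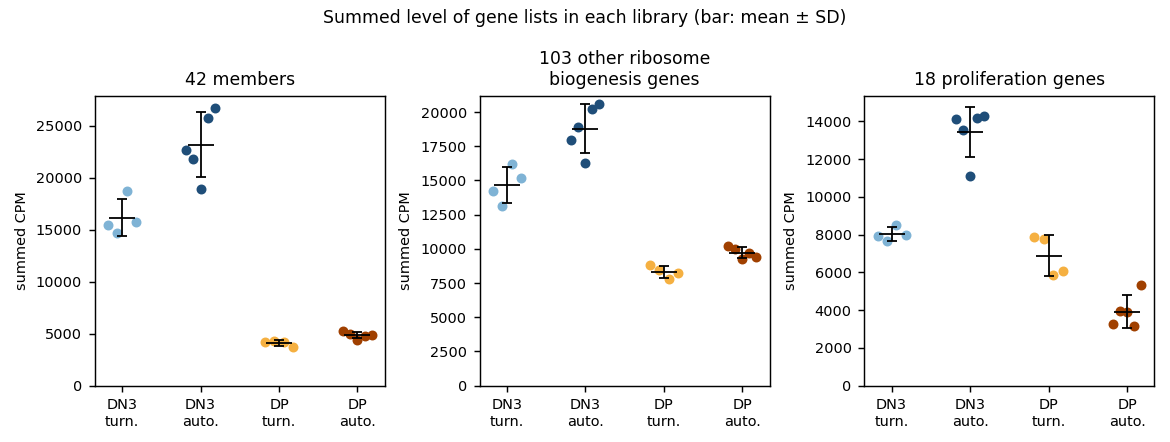
Summed CPM of the 42 genes, of 103 other ribosome biogenesis genes and of 18 proliferation genes in each of the 18 libraries; points are libraries and bars the group mean ± SD. The sums of the 42 genes lie between 14670 and 26730 CPM in DN3 and between 3719 and 5284 CPM in DP, while the proliferation sums fall from 6896 to 3922 CPM on average between DP turnover and DP autonomy.

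Per kilobase of exon, Npm1, a histone and rRNA-binding nucleolar chaperone, and Eif5a, the translation factor that carries hypusine, had the highest levels in all 4 groups. In DN3 turnover the per-kilobase level was 888 CPM per kb for Npm1 and 853 for Eif5a, then 231 for Nhp2 and 230.1 for Srm, and neither of these pairs of neighbours differed beyond the spread of the libraries. At the low end stood Polr1a, the largest subunit of RNA polymerase I, at 4.89 CPM per kb in DN3 turnover, and Utp20, a scaffold of the small-subunit precursor, at 5.74. The order changed between stages for Srm, the spermidine synthase, which ranked 4 of 42 in DN3 turnover and 24 of 42 in DP turnover, and for Wdr12, a large-subunit assembly factor, which ranked 34 and 8. In DP turnover the lowest per-kilobase level was that of Rrp12, known in yeast as a factor for export of pre-ribosomes, at 0.313 CPM per kb.

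**Figure D2:**
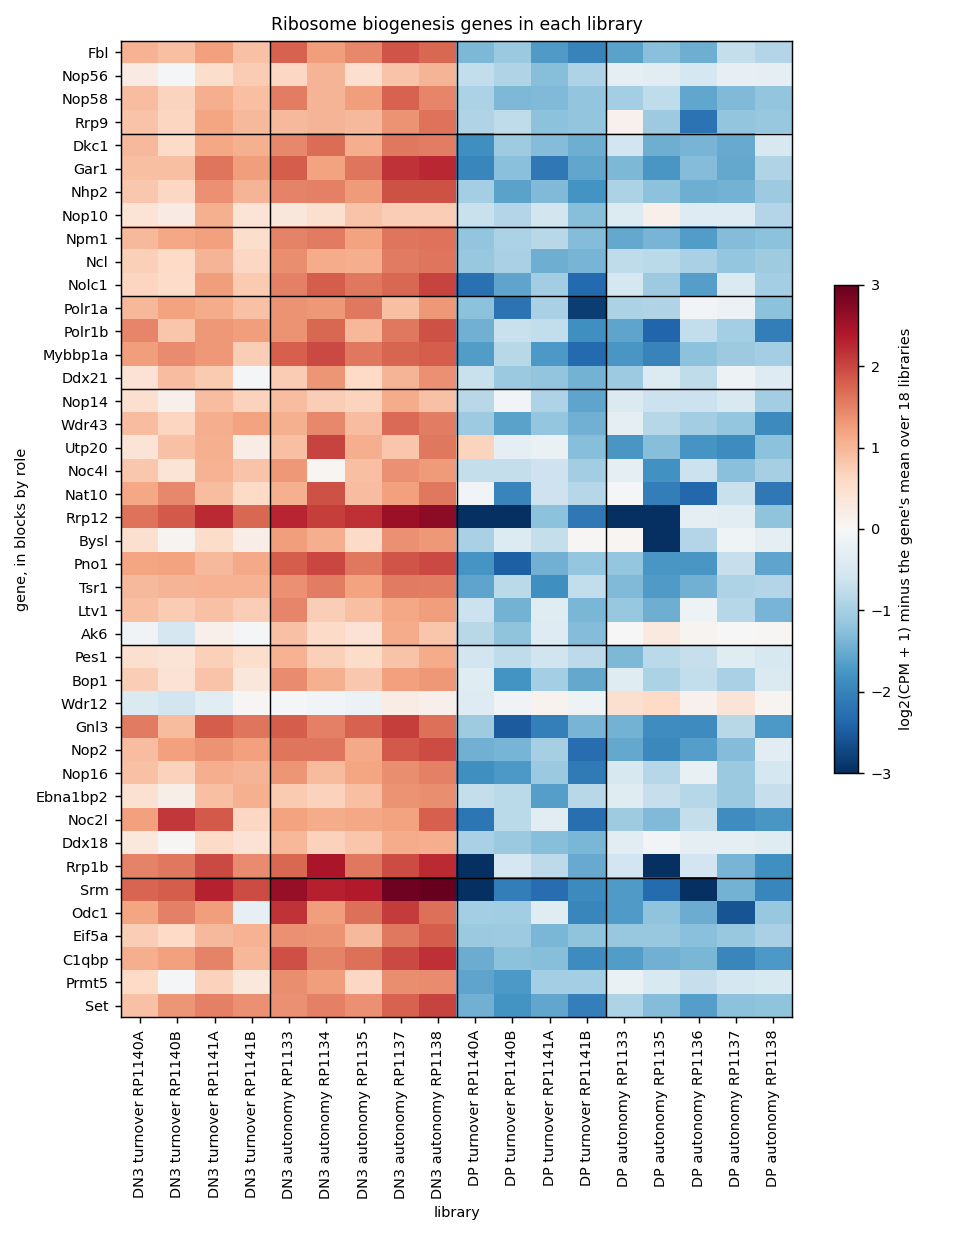
Heat map of log2(CPM + 1) minus each gene's mean over the 18 libraries, with genes in rows in blocks by role and libraries in columns by group; the colour scale ends at 3 in either direction. The DN3 columns are red and the DP columns blue for nearly all genes, and the Wdr12 row is close to white throughout, with levels of 250.3 to 372 CPM in DN3 turnover and 280.3 to 390 CPM in DP turnover.

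Myc is known to bind the E-box CACGTG, which reads the same on both strands and so was searched once per window. RefSeq promoter windows of GRCm38.p6, 250 bases before to 50 after a start site, were matched for 37 of the 42 genes, with 47 windows. Not matched were Rrp12, Fbl, Bop1, Npm1 and Srm. The motif was present for 10 of the 37 genes (27.0%) and for 2187 of 27025 genes in the whole table (8.09%), and in 12 of 47 windows (25.5%) against 2349 of 32851 windows (7.15%). In the part before the start site alone the shares were 10.6% of the windows of the 42 genes (5 of 47) and 6.02% of all windows. Those 5 windows belong to Set, to Nop2 and to alternative starts of Eif5a, so the share of windows counts Eif5a more than once. Some of the Eif5a windows overlap and hold the same motif. All matches are of letters only and were not tested for binding. Of the 5 windows, 3 are shown, each with 250 bases upstream of a start site of Set, Nop2 or Eif5a. They are given 5′ to 3′ on the gene's strand with CACGTG in capitals. Set, a histone chaperone and phosphatase inhibitor, lies on the plus strand at chr2:30061746-30061995, Nop2, an rRNA methyltransferase, on the plus strand at chr6:125131633-125131882, and the Eif5a window on the minus strand at chr11:69921387-69921636.
Set: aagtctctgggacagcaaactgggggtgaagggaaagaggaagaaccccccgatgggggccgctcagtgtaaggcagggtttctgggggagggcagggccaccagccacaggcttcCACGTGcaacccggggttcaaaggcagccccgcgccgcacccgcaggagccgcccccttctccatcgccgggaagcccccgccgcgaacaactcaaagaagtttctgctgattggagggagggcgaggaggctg
Nop2: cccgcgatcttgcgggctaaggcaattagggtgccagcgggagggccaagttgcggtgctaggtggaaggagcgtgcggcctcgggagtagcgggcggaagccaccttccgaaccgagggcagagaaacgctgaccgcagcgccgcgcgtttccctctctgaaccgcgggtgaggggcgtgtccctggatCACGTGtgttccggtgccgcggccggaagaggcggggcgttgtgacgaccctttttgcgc
Eif5a: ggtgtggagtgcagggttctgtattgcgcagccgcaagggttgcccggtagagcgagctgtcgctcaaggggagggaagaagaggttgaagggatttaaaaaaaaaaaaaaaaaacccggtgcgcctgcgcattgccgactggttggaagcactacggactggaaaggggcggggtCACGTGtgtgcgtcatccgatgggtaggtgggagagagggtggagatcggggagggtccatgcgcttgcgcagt
In 7 other genes the motif lay just after the start site. Of these 7, 3 rose in DN3 autonomy (Pno1, Mybbp1a and Tsr1), as did 16 of all 42 genes. The response differed between stages for 1 of the 7 (Utp20) and for 2 of all 42. Whether the motif goes with either change was not tested. The 30 bases around the motif are shown in the same manner. Their positions are chr11:17211540-17211569 (minus) for Pno1, chr11:72441347-72441376 (plus) for Mybbp1a, chr11:74898092-74898121 (plus) for Tsr1 and chr10:88826765-88826794 (minus) for Utp20. Those of Ltv1, Pes1 and Wdr43 are chr10:13193092-13193121 (minus), chr11:3963965-3963994 (plus) and chr17:71616220-71616249 (plus).
Pno1: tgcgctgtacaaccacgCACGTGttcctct
Mybbp1a: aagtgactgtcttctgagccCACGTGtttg
Tsr1: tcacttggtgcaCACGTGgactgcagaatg
Utp20: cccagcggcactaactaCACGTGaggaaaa
Ltv1: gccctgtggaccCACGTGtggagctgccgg
Pes1: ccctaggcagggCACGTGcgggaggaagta
Wdr43: cgcccgggcgaaCACGTGgctgccgcggag

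Autonomy was first compared with turnover within DN3 cells. Of the 42 genes, 16 rose in DN3 autonomy and none fell at an adjusted p under 0.05 in edgeR's quasi-likelihood test, while 6.53% of the 10766 genes tested rose and 8.35% fell. The 42 genes had a median log2 change of 0.48 against -0.05 over all genes tested. The change was above 0 for 41 of them, against 46.9% of all genes, with Noc2l at -0.25 the exception, and 26 had an unadjusted p under 0.05, as did 31.4% of all genes. In 10 genes (Fbl, Ncl, Nolc1, Mybbp1a, Bysl, Pno1, Tsr1, Ak6, Ddx18 and Srm) every autonomy library lay above every turnover library, which held for 8.26% of all genes. Whether fewer cells of a type or less RNA per cell lies behind a lower level cannot be told apart in bulk samples.

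The size of this group of calls depended on single libraries. The number of the 42 genes that rose was 5 without RP1140A, 7 without RP1140B, 9 without RP1141B, 5 without RP1137 and 5 without RP1138, and between 12 and 19 without any of the other 4 libraries. Without RP1141B the calls of Fbl, Nop58, Nhp2, Mybbp1a, Tsr1, Bop1 and C1qbp were lost, with log2 changes of 0.56, 0.52, 0.67, 0.46, 0.43, 0.48 and 0.58 and adjusted p between 0.0512 and 0.0861 in edgeR. Nolc1, Ak6, Bysl, Pno1 and Prmt5 passed in all 9 of these fits. The other 11 passed in 1 to 5 of the 9 fits, with adjusted p up to 0.130. With the A and B libraries of a shared RP number summed, Nolc1 and Ak6 alone passed.

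Among the box C/D small nucleolar RNP genes, 2 of 4 rose. Fbl encodes fibrillarin, the methyltransferase of the particle, and lies at chr7:28169710-28179269 (GRCm38, plus strand). Fbl was at 144 CPM in RP1140A, 131 in RP1140B, 164 in RP1141A and 129 in RP1141B under DN3 turnover, and at 239 CPM in RP1133, 168 in RP1134, 190.3 in RP1135, 258 in RP1137 and 230.3 in RP1138 under DN3 autonomy. The groups did not overlap, and the log2 change was 0.60 (SE 0.16, adjusted p = 0.0229 in edgeR's quasi-likelihood test), a call kept in 4 of 9 fits that left out 1 library. Of Fbl's 50-base stretches, 73.0% also occur in other annotated genes, so its reads may be split among them. Nop58, a core protein of the same particle, rose by 0.52 (SE 0.16, adjusted p = 0.0499). Nop56, its partner, had a log2 change of 0.41 and Rrp9, a protein of the U3 particle, 0.28, and neither passed.

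Of the 4 box H/ACA genes only Nhp2 rose. The DN3 turnover levels of Nhp2 were 236 CPM in RP1140A, 205 in RP1140B, 347 in RP1141A and 273 in RP1141B, and its DN3 autonomy levels 377 CPM in RP1133, 382 in RP1134, 324 in RP1135, 509 in RP1137 and 502 in RP1138. The highest turnover library, RP1141A, lay above the lowest autonomy library, RP1135, so the groups overlapped. The log2 change of Nhp2 was 0.65 (SE 0.19, adjusted p = 0.0364 in edgeR's quasi-likelihood test). Gar1, another protein of the particle, had the largest change of the class but did not pass. For Gar1, DN3 turnover gave 81.7 CPM in RP1140A, 80.9 in RP1140B, 133 in RP1141A and 103 in RP1141B, and DN3 autonomy gave 154 CPM in RP1133, 100.5 in RP1134, 133 in RP1135, 197 in RP1137 and 208 in RP1138. Its log2 change was 0.66 (SE 0.23, adjusted p = 0.0672 in edgeR's quasi-likelihood test), and the groups overlapped. Dkc1, the pseudouridine synthase, had a change of 0.51 (adjusted p = 0.0561 in edgeR) and Nop10 one of 0.06.

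The nucleolar scaffold gene Nolc1 had the largest change of all 42. It encodes a phosphoprotein that shuttles small nucleolar RNPs and lies at chr19:46075863-46085530 (plus strand). The DN3 turnover libraries held Nolc1 at 206 CPM in RP1140A, 192 in RP1140B, 315 in RP1141A and 228 in RP1141B, and the DN3 autonomy libraries at 376 CPM in RP1133, 466 in RP1134, 393 in RP1135, 437 in RP1137 and 543 in RP1138. All 5 autonomy libraries lay above the highest turnover library, RP1141A. Nolc1 rose by 0.91 on the log2 scale (SE 0.18, adjusted p = 0.0061 in edgeR's quasi-likelihood test), or 1.87-fold. Ncl, nucleolin, an abundant rRNA-binding protein at chr1:86344719-86359400 (minus strand), also rose. Ncl was at 1998 CPM in RP1140A, 1852 in RP1140B, 2471 in RP1141A and 1875 in RP1141B under DN3 turnover, and at 3194 CPM in RP1133, 2624 in RP1134, 2595 in RP1135, 3591 in RP1137 and 3702 in RP1138 under DN3 autonomy. The groups did not overlap, though RP1135 at 2595 CPM was close to RP1141A at 2471 CPM, and the log2 change was 0.61 (SE 0.16, adjusted p = 0.0248 in edgeR's quasi-likelihood test). Npm1, the third of this class, is described with the difference between stages.

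Among RNA polymerase I and its partners, Mybbp1a was the only one of 4 that passed. It encodes a nucleolar protein that binds the Myb proto-oncogene product and lies at chr11:72441355-72451768 (plus strand). The DN3 turnover levels of Mybbp1a were 348 CPM in RP1140A, 389 in RP1140B, 359.5 in RP1141A and 243 in RP1141B, and its DN3 autonomy levels 504 CPM in RP1133, 577 in RP1134, 437 in RP1135, 491 in RP1137 and 509.6 in RP1138. The groups did not overlap, with RP1141B the lowest turnover library, and the log2 change was 0.58 (SE 0.16, adjusted p = 0.0289 in edgeR's quasi-likelihood test). Without RP1141B the call was lost, as it was without RP1140A, RP1137 or RP1138, with adjusted p up to 0.0707. Polr1a and Polr1b, the 2 largest subunits of the enzyme, had log2 changes of 0.25 and 0.31, and Ddx21, a helicase that senses polymerase activity, 0.47.

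Of the 11 small-subunit assembly genes, 4 rose: Ak6, Bysl, Pno1 and Tsr1. Ak6, an adenylate kinase that acts late on the small-subunit precursor, lies at chr13:100650979-100666359 (plus strand). For Ak6, DN3 turnover gave 118 CPM in RP1140A, 90.3 in RP1140B, 142 in RP1141A and 124 in RP1141B, and DN3 autonomy gave 235 CPM in RP1133, 191 in RP1134, 173 in RP1135, 278 in RP1137 and 228 in RP1138. The groups did not overlap, with a log2 change of 0.89 (SE 0.18, adjusted p = 0.0067 in edgeR's quasi-likelihood test). Ak6 shares exon sequence on the same strand with Taf9, a transcription factor subunit, so its counts may be affected by reads of that gene. Bysl, bystin, is needed for small-subunit processing. The DN3 turnover libraries held Bysl at 68.5 CPM in RP1140A, 51.5 in RP1140B, 72.6 in RP1141A and 56.00 in RP1141B, and the DN3 autonomy libraries at 118 CPM in RP1133, 104 in RP1134, 73.8 in RP1135, 128 in RP1137 and 122 in RP1138. The lowest autonomy library, RP1135 at 73.8 CPM, lay just above the highest turnover library, RP1141A at 72.6 CPM. Bysl rose by 0.80 on the log2 scale (SE 0.19, adjusted p = 0.0149 in edgeR's quasi-likelihood test). Exons of Bysl overlap those of Ccnd3, a cyclin gene on the other strand, over 361 bases.

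Pno1, an RNA-binding factor at the platform of the small-subunit precursor, lies at chr11:17203198-17211568 (minus strand). Pno1 was at 117 CPM in RP1140A, 119.6 in RP1140B, 102 in RP1141A and 114 in RP1141B under DN3 turnover, and at 184 CPM in RP1133, 209 in RP1134, 154 in RP1135, 193 in RP1137 and 206 in RP1138 under DN3 autonomy. The turnover libraries lay between 102 and 119.6 CPM, and all autonomy libraries lay above them. Pno1 rose by 0.73 on the log2 scale (SE 0.14, adjusted p = 0.0054 in edgeR's quasi-likelihood test). Tsr1, a GTPase-like factor of the late precursor, rose by 0.42 (SE 0.13, adjusted p = 0.0487), a call kept in 1 of 9 fits that left out a library. Exons of Tsr1 overlap those of Srr, a gene on the other strand, over 1240 bases. Of its 50-base stretches, 31.1% also occur in other annotated genes. The other 7 genes of the class (Nop14, Wdr43, Utp20, Noc4l, Nat10, Rrp12 and Ltv1) had log2 changes between 0.24 and 0.67 and did not pass.

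Of the 10 large-subunit assembly genes, Ddx18 and Bop1 rose. Ddx18 encodes a DEAD-box helicase of the large-subunit precursor and lies at chr1:121553835-121567989 (minus strand). The DN3 turnover levels of Ddx18 were 124 CPM in RP1140A, 102 in RP1140B, 149 in RP1141A and 134 in RP1141B, and its DN3 autonomy levels 199 CPM in RP1133, 160.3 in RP1134, 176 in RP1135, 216 in RP1137 and 213 in RP1138. The groups did not overlap, and the log2 change was 0.59 (SE 0.16, adjusted p = 0.0234 in edgeR's quasi-likelihood test). Of its 50-base stretches, 62.7% also occur in other annotated genes. Bop1, which forms a complex with Pes1 and Wdr12, rose by 0.56 (SE 0.17, adjusted p = 0.0382), while Pes1 and Wdr12 had changes of 0.33 and 0.32 and did not pass. Noc2l was the single gene with a change below 0.

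Of the 6 polyamine and other Myc-linked genes, Srm, Eif5a, C1qbp and Prmt5 rose. Srm, spermidine synthase, lies at chr4:148591503-148594993 (plus strand). For Srm, DN3 turnover gave 315 CPM in RP1140A, 331 in RP1140B, 462 in RP1141A and 364 in RP1141B, and DN3 autonomy gave 572 CPM in RP1133, 474 in RP1134, 487 in RP1135, 709.5 in RP1137 and 779 in RP1138. The groups did not overlap, with RP1134 at 474 CPM close to RP1141A at 462 CPM. Srm rose by 0.71 on the log2 scale (SE 0.18, adjusted p = 0.0232 in edgeR's quasi-likelihood test). Prmt5, an arginine methyltransferase, was lower in RP1135 than in the other 4 autonomy libraries. The DN3 turnover libraries held Prmt5 at 354 CPM in RP1140A, 229.7 in RP1140B, 381 in RP1141A and 292 in RP1141B, and the DN3 autonomy libraries at 618 CPM in RP1133, 559 in RP1134, 360.3 in RP1135, 621 in RP1137 and 623 in RP1138. That library lay below the highest turnover library, so the groups overlapped, and the log2 change was 0.81 (SE 0.20, adjusted p = 0.0172 in edgeR's quasi-likelihood test).

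C1qbp, a mitochondrial matrix protein, had a log2 change of 0.64 (SE 0.17, adjusted p = 0.0231 in edgeR's quasi-likelihood test). C1qbp was at 396 CPM in RP1140A, 438 in RP1140B, 522 in RP1141A and 374 in RP1141B under DN3 turnover, and at 710.4 CPM in RP1133, 520.3 in RP1134, 585 in RP1135, 738 in RP1137 and 849 in RP1138 under DN3 autonomy. Its highest turnover library, RP1141A at 522 CPM, was just above the lowest autonomy library, RP1134 at 520.3 CPM. Eif5a rose by 0.58 (SE 0.18, adjusted p = 0.0445). The DN3 turnover levels of Eif5a were 1893 CPM in RP1140A, 1692 in RP1140B, 2212 in RP1141A and 2316 in RP1141B, and its DN3 autonomy levels 2906 CPM in RP1133, 2844 in RP1134, 2221 in RP1135, 3352 in RP1137 and 3957 in RP1138. The RP1135 level lay below that of the turnover library RP1141B. Odc1, ornithine decarboxylase, the first enzyme of polyamine synthesis, had a larger change of 0.74 but a wide spread (SE 0.30, adjusted p = 0.1096), and Set had one of 0.35 (adjusted p = 0.204); neither passed.

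**Figure D3:**
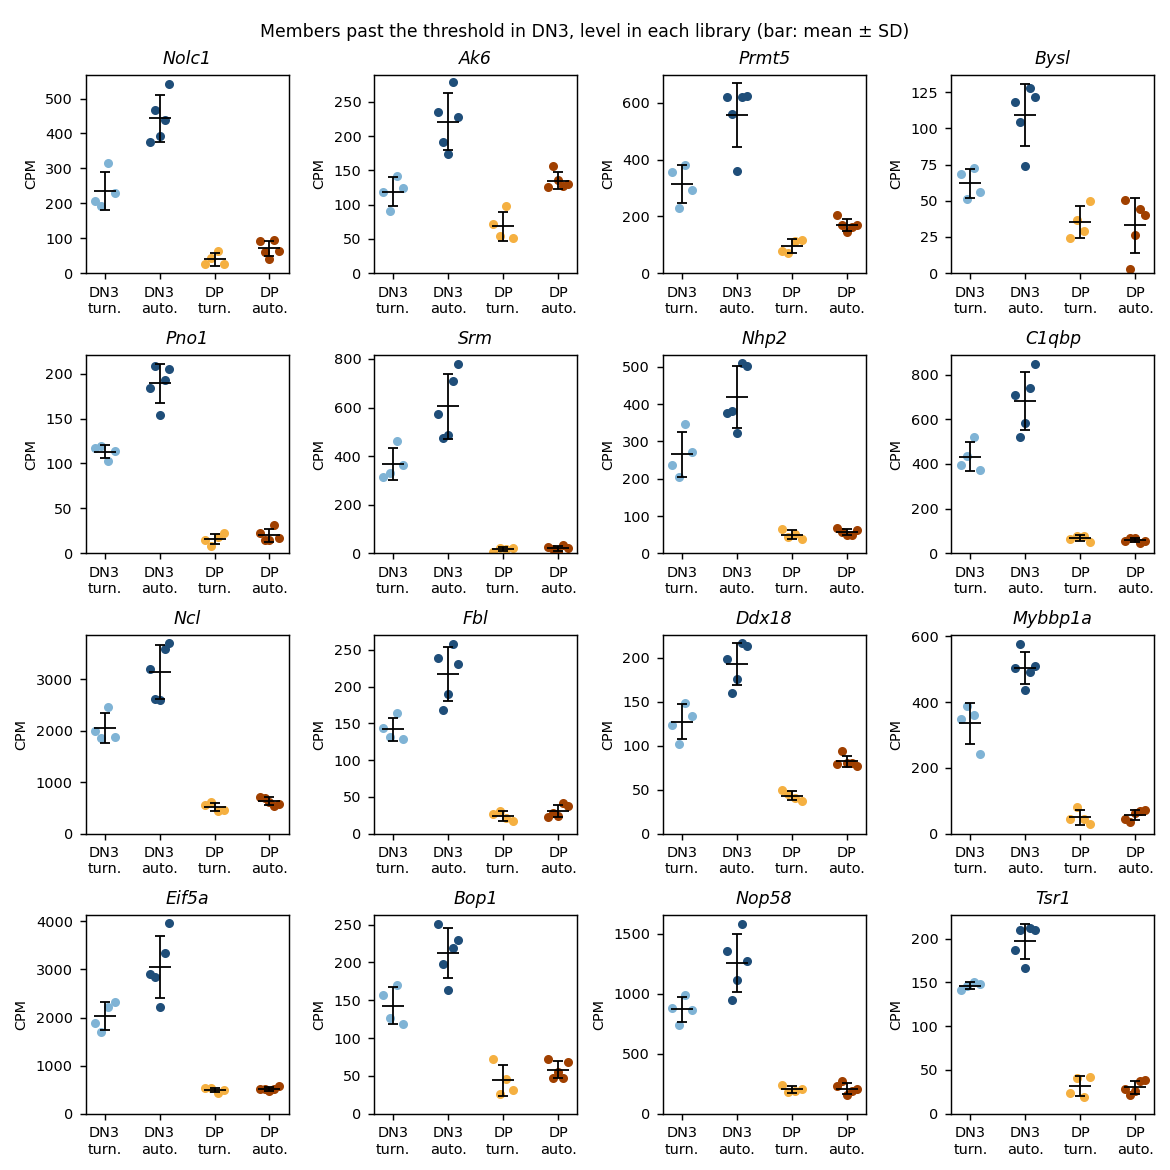
CPM in each library for the 16 genes that passed in DN3 autonomy against turnover; points are libraries in the 4 groups and bars the mean ± SD, with axes starting at 0. The Nolc1 panel runs from 192 to 315 CPM in DN3 turnover and from 376 to 543 CPM in DN3 autonomy, and in every panel but that of Ak6 all DP libraries lie below all DN3 libraries; for Ak6 the highest DP library, RP1135 of DP autonomy at 156 CPM, lies above all 4 DN3 turnover libraries.

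Proliferation genes and markers of other cells moved with the DN3 groups. Of 18 proliferation genes, 16 rose and none fell in DN3 autonomy, against 6.53% and 8.35% of all genes tested. Their median log2 change was 0.79, and their summed level was 7682 to 8530 CPM in turnover and 11100 to 14270 CPM in autonomy. RP1135 had the lowest sum of the autonomy libraries for proliferation genes and for the 42 genes alike. The sum of 5 NK cell markers was 113 to 162 CPM in DN3 turnover and 6.10 to 65.3 CPM in DN3 autonomy, nearly all of it Nkg7 in turnover, while Klrk1 was at 0 in every DN3 library and Ncr1 at 0 in every DN3 turnover library. The sum of 7 macrophage markers was 22.3 to 38.0 CPM against 5.75 to 17.4 CPM, with C1qc and Adgre1 at 0 in DN3 turnover. Of these, Lyz2 was 17.0 to 34.3 CPM in turnover and 1.15 to 11.5 CPM in autonomy, while Cd68 went the other way, at 2.37 to 5.002 CPM and 3.90 to 6.79 CPM, with a log2 change of 0.47 that did not pass (adjusted p = 0.485 in edgeR). The sum of 5 B cell markers was 52.3 to 91.4 CPM against 13.2 to 42.2 CPM, nearly all Cd79b, with Ms4a1 and Pax5 at 0 in every DN3 library. For 5 dendritic cell markers it was 13.1 to 29.2 CPM against 2.53 to 10.3 CPM, mostly H2-Ab1, with Itgax at 0 in DN3 autonomy. For 6 stromal and endothelial markers it was 180.1 to 215 CPM against 73.5 to 140.0 CPM, mostly Epcam and Pecam1, with Pdgfra at 0 in every DN3 library and Foxn1 and Col1a1 at 0 in DN3 turnover. The part of these genes in the result was not tested.

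In DP cells the same comparison gave fewer calls. Of the 42 genes, 4 rose (Nop56, Ak6, Ddx18 and Prmt5) and none fell, against 0.861% of the 10339 genes tested in each direction. The median log2 change was 0.22 against -0.02 over all genes, and 29 of 42 changes were above 0 against 48.7% of all genes. In all 4 genes every autonomy library lay above every turnover library, which held for 4.22% of all genes. Unadjusted p was under 0.05 for 11 of the 42 genes and for 17.1% of all genes.

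For Ddx18, DP turnover gave 49.6 CPM in RP1140A, 45.5 in RP1140B, 40.05 in RP1141A and 37.5 in RP1141B, and DP autonomy gave 78.8 CPM in RP1133, 93.8 in RP1135, 80.5 in RP1136, 80.5 in RP1137 and 76.8 in RP1138. The Ddx18 groups lay far apart, and the log2 change was 0.92 (SE 0.19, adjusted p = 0.0302 in edgeR's quasi-likelihood test), or 1.89-fold. The DP turnover libraries held Ak6 at 71.9 CPM in RP1140A, 54.4 in RP1140B, 97.5 in RP1141A and 50.9 in RP1141B, and the DP autonomy libraries at 126 CPM in RP1133, 156 in RP1135, 136 in RP1136, 127 in RP1137 and 131 in RP1138. The highest turnover library of Ak6, RP1141A, was still below the lowest autonomy library, RP1133, and the log2 change was 0.97 (SE 0.21, adjusted p = 0.0371 in edgeR's quasi-likelihood test). Prmt5 was at 77.8 CPM in RP1140A, 70.9 in RP1140B, 115 in RP1141A and 116 in RP1141B under DP turnover, and at 204 CPM in RP1133, 171 in RP1135, 145 in RP1136, 164 in RP1137 and 171 in RP1138 under DP autonomy. For Prmt5 the log2 change was 0.83 (SE 0.19, adjusted p = 0.0472 in edgeR's quasi-likelihood test), with the turnover libraries RP1141A and RP1141B about level below all autonomy libraries. Nop56, the box C/D core protein at chr2:130274430-130279313 (plus strand), rose as well. The DP turnover levels of Nop56 were 399 CPM in RP1140A, 357 in RP1140B, 276 in RP1141A and 352 in RP1141B, and its DP autonomy levels 545 CPM in RP1133, 539 in RP1135, 465 in RP1136, 562 in RP1137 and 549 in RP1138. Nop56 rose by 0.61 on the log2 scale (SE 0.13, adjusted p = 0.0311 in edgeR's quasi-likelihood test), with RP1136 the lowest autonomy library. Of Nop56's 50-base stretches, 37.6% also occur in other annotated genes.

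These 4 calls rested on single libraries. Without 1 library, 3 of the 42 genes still rose when RP1138 was left out, 2 without RP1140A, 1 without RP1141A or RP1136, and none without RP1140B, RP1141B, RP1133, RP1135 or RP1137; with A and B libraries summed none passed. Nop56 passed in 3 of these 9 fits, Ak6 and Ddx18 in 2 and Prmt5 in none, with log2 changes of 0.51 to 0.68, 0.84 to 1.18, 0.85 to 0.98 and 0.71 to 0.94. Nop16, a large-subunit factor, had a log2 change of 1.07 (SE 0.31, adjusted p = 0.0898 in edgeR) and did not pass. Markers moved here too. The 5 DN3 markers, of a stage in which the 42 genes are higher, summed to 59.04 to 73.9 CPM in DP turnover and 127 to 235 CPM in DP autonomy, without overlap, against 729 to 1635 CPM in DN3 libraries. Of the 4 that were tested, Dtx1 rose by 2.99 (SE 0.51, adjusted p = 0.0160 in edgeR's quasi-likelihood test), Il2ra, Ptcra and Notch3 had log2 changes of 1.92, 0.92 and 0.66 and did not pass, and the median was 1.42; Hes1 was at 0 to 3.72 CPM in DP libraries. The sum of 6 DP markers was 7183 to 7571 CPM in DP turnover and 7592 to 8518 CPM in DP autonomy. The sum of 7 macrophage markers was 3.39 to 35.6 CPM in DP turnover and 20.7 to 137 CPM in DP autonomy, with C1qc and Csf1r at 0 in DP turnover and Adgre1 at 0 in DP autonomy. The sum of 5 dendritic cell markers was 5.95 to 18.7 CPM against 7.11 to 151 CPM, with overlap. In DP autonomy RP1135 was at 151 CPM and RP1133 at 73.9 CPM, while RP1136, RP1137 and RP1138 were at 20.5, 20.8 and 7.11 CPM. Of 5 macrophage markers tested 1 rose, against 0.861% of all genes tested, and of 4 dendritic cell markers tested none passed. The sums of NK cell, B cell, and stromal and endothelial markers overlapped between the DP groups, and none of those markers passed. Of 18 proliferation genes, 6 fell and none rose in DP autonomy, against 0.861% of all genes tested in each direction. Their median log2 change was -0.69, with sums of 5847 to 7877 CPM in turnover and 3139 to 5361 CPM in autonomy. The part of these genes in the result was not tested.

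**Figure D4:**
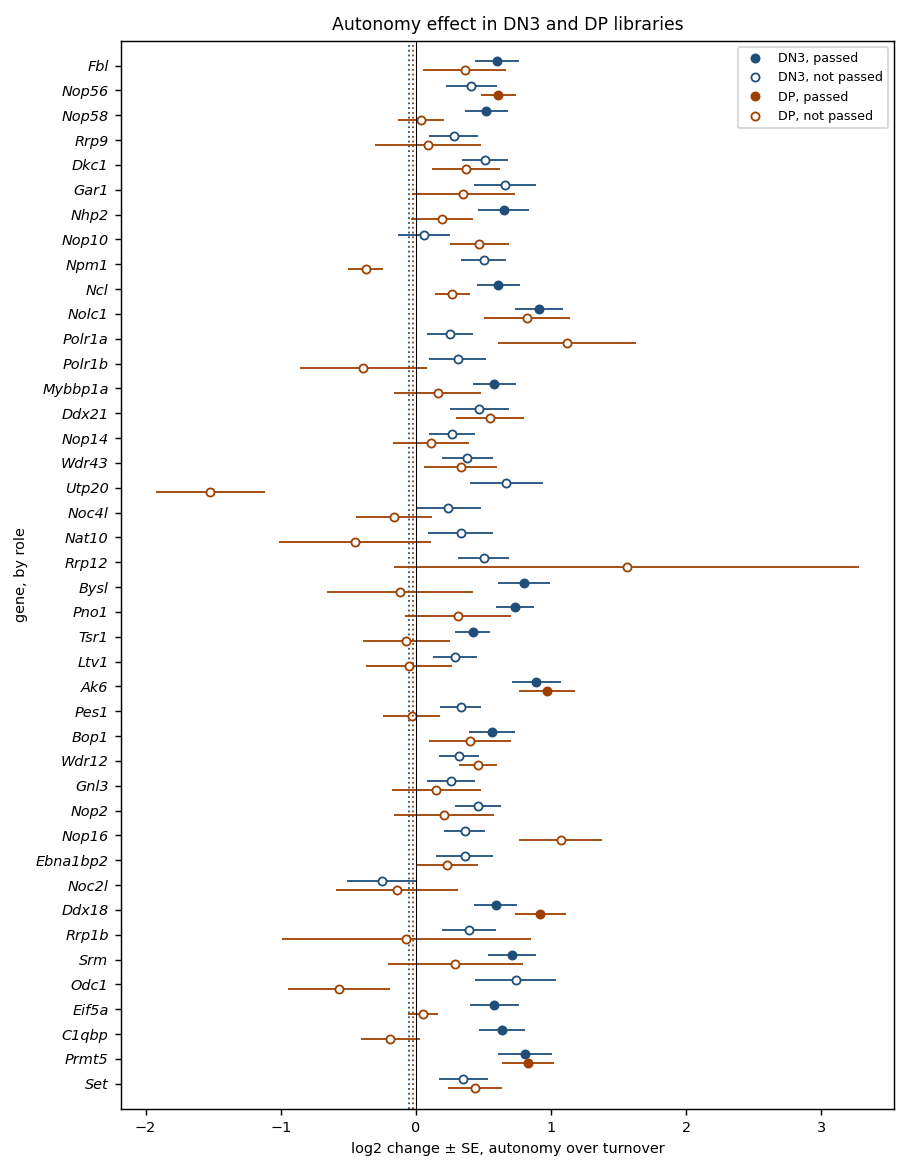
Log2 change ± SE of autonomy over turnover for each of the 42 genes in DN3 (blue) and DP (brown) libraries; filled points passed and open points did not, and dotted lines mark the median of all genes tested. All DN3 points but Noc2l lie right of 0, with a median of 0.48, and DP points spread from -1.52 for Utp20 to 1.56 for Rrp12.

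Whether the response to autonomy differed between the stages was tested as an interaction over all 18 libraries. Of the 42 genes, 2 had a lower response in DP than in DN3 and none a higher one, against 2.61% and 2.88% of the 11521 genes tested. The median difference was -0.25 on the log2 scale against 0.06 over all genes. In this test 6 of the 42 genes had an unadjusted p under 0.05, as did 19.9% of all genes. The 2 genes past the threshold were Npm1 and Utp20, and both passed in all 18 fits that left out 1 library. With the RP number as a block, Npm1 passed and Utp20 did not (-1.77, adjusted p = 0.0528 in edgeR). This comparison uses the same libraries as the tests within each stage.

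Npm1, nucleophosmin, lies at chr11:33152287-33163206 (minus strand) and ranked 1 or 2 of the 42 by level per kilobase in every group. For Npm1, DN3 turnover gave 2332 CPM in RP1140A, 2635 in RP1140B, 2802 in RP1141A and 1695 in RP1141B, and DN3 autonomy gave 3302 CPM in RP1133, 3491 in RP1134, 2722 in RP1135, 3616 in RP1137 and 3682 in RP1138. The DP turnover libraries held Npm1 at 519 CPM in RP1140A, 617 in RP1140B, 667 in RP1141A and 478 in RP1141B, and the DP autonomy libraries at 406 CPM in RP1133, 453 in RP1135, 372 in RP1136, 481 in RP1137 and 506 in RP1138. In DN3 the autonomy libraries were above turnover except for RP1135, which was below RP1141A, and in DP the autonomy libraries were below turnover except for RP1137 and RP1138, which were above RP1141B. The log2 change was 0.50 (SE 0.17, adjusted p = 0.0640) in DN3 and -0.37 (SE 0.13, adjusted p = 0.158) in DP, neither past the threshold in edgeR. Their difference, DP minus DN3, was -0.87 (SE 0.21, adjusted p = 0.0194 in edgeR's quasi-likelihood test). Of its 50-base stretches, 40.9% also occur in other annotated genes.

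Utp20 lies at chr10:88746607-88826804 (minus strand). Utp20 was at 48.2 CPM in RP1140A, 67.3 in RP1140B, 76.2 in RP1141A and 42.5 in RP1141B under DN3 turnover, and at 68.3 CPM in RP1133, 149 in RP1134, 77.7 in RP1135, 64.5 in RP1137 and 109 in RP1138 under DN3 autonomy. The DP turnover levels of Utp20 were 58.2 CPM in RP1140A, 29.2 in RP1140B, 31.3 in RP1141A and 14.1 in RP1141B, and its DP autonomy levels 10.04 CPM in RP1133, 14.2 in RP1135, 9.78 in RP1136, 9.04 in RP1137 and 14.8 in RP1138. In DP the autonomy libraries lay between 9.04 and 14.8 CPM and all but RP1135 and RP1138 were below every turnover library. The log2 change was 0.67 (SE 0.27, adjusted p = 0.112) in DN3 and -1.52 (SE 0.40, adjusted p = 0.0696) in DP, neither past the threshold in edgeR. The difference was -2.19 (SE 0.48, adjusted p = 0.0104 in edgeR's quasi-likelihood test). The next gene was C1qbp, with a difference of -0.84 (SE 0.25) and an adjusted p of 0.0507 in edgeR, which did not pass. For Ddx18, Ak6, Prmt5 and Nop56, the 4 genes that rose in DP, the difference between the stages lay between 0.02 and 0.32 and did not pass.

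DP was then compared with DN3 within each condition. In turnover 39 of the 42 genes were lower in DP and none was higher, while 19.1% of the 11521 genes tested fell and 15.8% rose. In autonomy 41 of the 42 were lower in DP and none higher, against 25.2% and 23.7% of all genes. The median log2 change was -2.09 in turnover and -2.58 in autonomy, against medians of -0.04 and 0.00 over all genes. Every DP library lay below every DN3 library for 39 genes in turnover and 41 in autonomy, which held for 19.6% and 20.8% of all genes. The comparisons share no libraries, but the 4 group means were fitted together with 1 estimate of the spread. Without RP1141B of DN3 turnover the turnover count stayed at 39.

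The falls were steepest for Srm, Rrp12, Gnl3 and C1qbp. For Srm, DP turnover gave 6.12 CPM in RP1140A, 21.4 in RP1140B, 18.3 in RP1141A and 23.98 in RP1141B, and DP autonomy gave 27.7 CPM in RP1133, 17.96 in RP1135, 5.93 in RP1136, 33.9 in RP1137 and 22.98 in RP1138. With DN3 turnover levels of 315 to 462 CPM, Srm fell by 4.38 on the log2 scale (SE 0.43, adjusted p = 3.07e-07 in edgeR's quasi-likelihood test) in turnover. In autonomy it fell by 4.80 (SE 0.39, adjusted p = 6.22e-09 in the same test). The DP turnover libraries held Rrp12 at 0 CPM in RP1140A, 0 in RP1140B, 3.86 in RP1141A and 1.57 in RP1141B, and the DP autonomy libraries at 0 CPM in RP1133, 0 in RP1135, 8.32 in RP1136, 8.08 in RP1137 and 3.93 in RP1138. Rrp12 was at 34.6 CPM in RP1140A, 40.2 in RP1140B, 53.3 in RP1141A and 36.98 in RP1141B under DN3 turnover, and at 54.98 CPM in RP1133, 47.3 in RP1134, 51.6 in RP1135, 66.8 in RP1137 and 72.2 in RP1138 under DN3 autonomy. Rrp12 fell by 4.87 (SE 1.12, adjusted p = 0.00222) in turnover and fell by 3.80 (SE 0.94, adjusted p = 0.00225) in autonomy in the same edgeR test. RP1140A and RP1140B of DP turnover and RP1133 and RP1135 of DP autonomy had no Rrp12 read, and a count of 0 allows, at 3 counts, levels up to 0.437, 0.114, 0.568 and 0.319 CPM in these libraries. Such floors cover counting error only.

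Gnl3, nucleostemin, a nucleolar GTPase of dividing cells, lies at chr14:31012433-31019152 (minus strand). The DN3 turnover levels of Gnl3 were 452 CPM in RP1140A, 299 in RP1140B, 546 in RP1141A and 468 in RP1141B, and its DN3 autonomy levels 546 CPM in RP1133, 442 in RP1134, 530.2 in RP1135, 653 in RP1137 and 483 in RP1138. For Gnl3, DP turnover gave 73.2 CPM in RP1140A, 26.4 in RP1140B, 36.4 in RP1141A and 58.2 in RP1141B, and DP autonomy gave 56.8 CPM in RP1133, 41.5 in RP1135, 40.9 in RP1136, 85.4 in RP1137 and 46.1 in RP1138. The highest DP library was at 85.4 CPM and the lowest DN3 library at 299 CPM, and Gnl3 fell by 3.19 on the log2 scale (SE 0.30, adjusted p = 2.37e-07 in edgeR's quasi-likelihood test) in turnover. C1qbp fell by 3.51 (SE 0.18, adjusted p = 7.11e-11) in autonomy. The DP turnover libraries held C1qbp at 66.03 CPM in RP1140A, 78.6 in RP1140B, 76.7 in RP1141A and 49.5 in RP1141B, and the DP autonomy libraries at 57.6 CPM in RP1133, 67.6 in RP1135, 71.05 in RP1136, 46.9 in RP1137 and 55.2 in RP1138. The DP libraries of C1qbp overlapped between the conditions.

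By role, all 4 box C/D genes, all 4 box H/ACA genes, all 3 scaffold genes, all 4 RNA polymerase I genes and all 6 polyamine and other Myc-linked genes fell in both conditions. The median log2 change in turnover was -2.04, -2.39, -2.05, -2.57 and -2.38 in that order. Of the 11 small-subunit genes 9 fell in turnover and 11 in autonomy, and of the 10 large-subunit genes 9 fell in each. The genes that did not pass in turnover were Utp20, Bysl and Wdr12. Utp20 had a log2 change of -0.82 (adjusted p = 0.0756 in edgeR), or -1.20 (adjusted p = 0.0120) without RP1140A of DP turnover, and Bysl one of -0.82 (adjusted p = 0.178). Ak6 showed the smallest fall that passed, -0.79 (SE 0.20, adjusted p = 0.00504 in edgeR's quasi-likelihood test), with RP1141A of DP turnover at 97.5 CPM above RP1140B of DN3 turnover at 90.3 CPM.

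Wdr12 was the 1 gene of 42 with a higher mean in DP, and it was singled out after its values were seen. Wdr12 was at 271 CPM in RP1140A, 250.3 in RP1140B, 294 in RP1141A and 372 in RP1141B under DN3 turnover, and at 357 CPM in RP1133, 347 in RP1134, 325 in RP1135, 424 in RP1137 and 406 in RP1138 under DN3 autonomy. The DP turnover levels of Wdr12 were 280.3 CPM in RP1140A, 338 in RP1140B, 389.8 in RP1141A and 328 in RP1141B, and its DP autonomy levels 509.8 CPM in RP1133, 550.3 in RP1135, 402 in RP1136, 478 in RP1137 and 386 in RP1138. The groups overlapped between stages in both conditions. The log2 change, DP over DN3, was 0.17 (SE 0.16, adjusted p = 0.433) in turnover and 0.32 (SE 0.14, adjusted p = 0.0629) in autonomy, neither past the threshold in edgeR's quasi-likelihood test. In autonomy it passed when RP1137 or RP1138 of DN3 (0.39 and 0.38) or RP1136 or RP1138 of DP (0.37 and 0.38) was left out. Its partners in the same large-subunit complex, Pes1 and Bop1, fell by 1.23 (SE 0.19) and 1.70 (SE 0.26) in turnover. Exons of Wdr12 overlap those of Carf, a gene on the other strand, over 61 bases. Of Wdr12's 50-base stretches, 7.3% also occur in other annotated genes, spread over 362 genes.

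**Figure D5:**
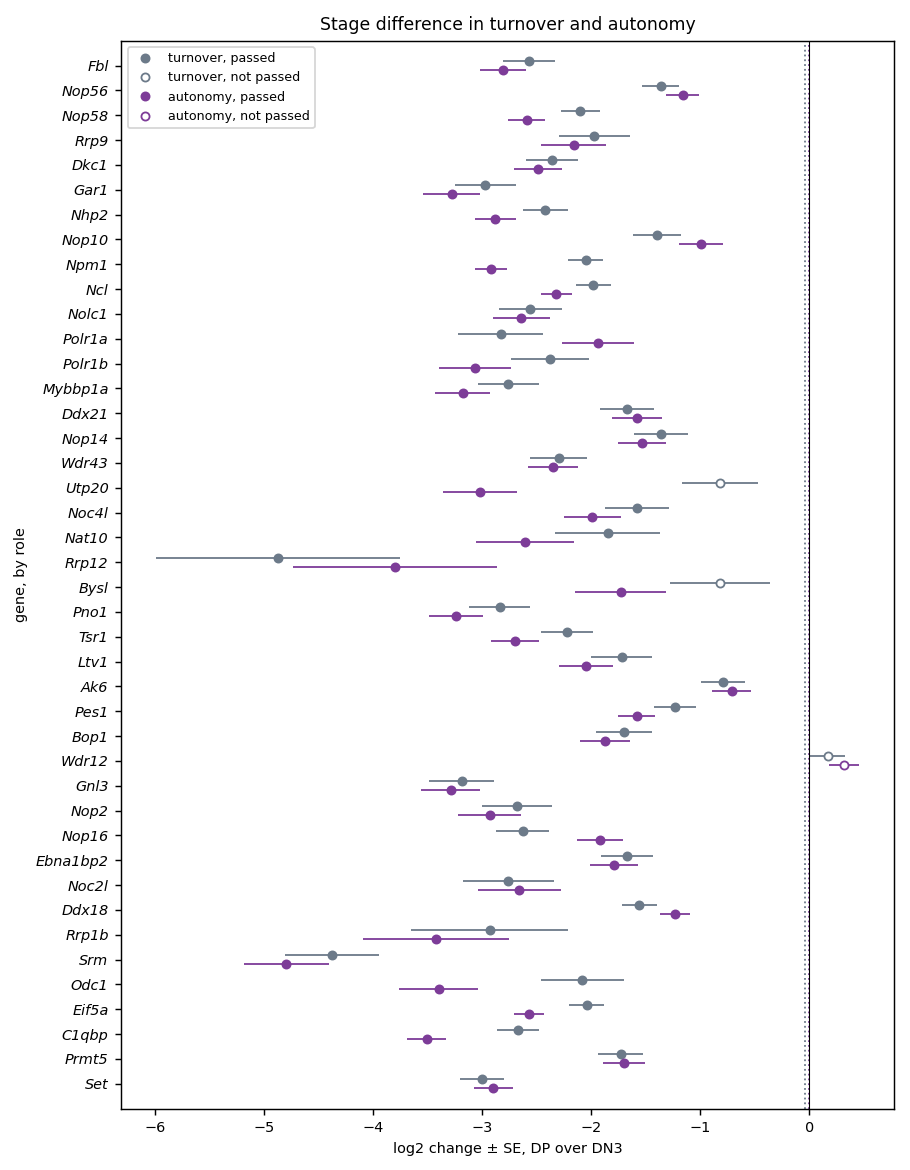
Log2 change ± SE of DP over DN3 for each of the 42 genes in turnover (grey) and autonomy (purple); filled points passed and open points did not, and dotted lines mark the median of all genes tested. Points lie between -4.87 for Rrp12 and -0.71 for Ak6 except for Wdr12, at 0.17 and 0.32.

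A list of 106 other ribosome biogenesis genes, of which 103 were in the count table, was read beside the 42. In DN3 autonomy 14 of the 103 rose and none fell, against 6.53% and 8.35% of all genes tested. The median log2 change of the 103 was 0.35. Their largest rises were Snu13, a box C/D and spliceosome protein, at 0.87 (SE 0.16, adjusted p = 0.00385 in edgeR), Mrto4 at 0.76 (SE 0.16) and Tbl3 at 0.74 (SE 0.15). In DP autonomy Emg1, an rRNA methyltransferase, was the only one of the 103 to rise, by 0.49 (SE 0.11, adjusted p = 0.0471 in edgeR), against 0.861% of all genes tested. The median of the 103 in DP was 0.14. None of the 103 passed in the difference between stages in edgeR's test, where 10 had an unadjusted p under 0.05, against 19.9% of all genes. From DN3 to DP, 69 of 103 fell in turnover and 77 in autonomy, against 19.1% and 25.2% of all genes tested. No gene of the 103 rose, and their medians were -0.80 and -1.05. The largest falls were Rrp15 (-3.14), Rrs1 (-2.79) and Znhit6 (-2.76) in turnover and Rrs1 (-3.31), Rrp15 (-3.13) and Rcl1 (-2.94) in autonomy.

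Among 9 other polyamine and hypusine genes none passed in DN3 or DP autonomy in edgeR's test, with 4 and 1 at an unadjusted p under 0.05, and none passed in the difference, with 4 at such a p. From DN3 to DP in turnover Sat1, which acetylates and so removes polyamines, rose by 1.37 (SE 0.22, adjusted p = 8.85e-05 in edgeR's quasi-likelihood test). No other gene of the 9 passed, while 15.8% of all genes tested rose and 19.1% fell. In autonomy 3 of the 9 rose and 3 fell, against 23.7% and 25.2% of all genes tested. The rises were Sat1 at 1.99, Smox, spermine oxidase, at 1.01 and Oaz2, an inhibitor of ornithine decarboxylase, at 0.99. The falls were Amd1, S-adenosylmethionine decarboxylase, which supplies polyamine synthesis, at -1.41 (SE 0.28), Dohh, the hydroxylase that completes hypusine, at -1.09 (SE 0.35), and Sms, spermine synthase, at -0.69 (SE 0.18). Srm and Odc1, which make polyamines, fell in both conditions.

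The mean level of Myc itself was lower in autonomy than in turnover in both stages, but neither difference passed. In DN3 turnover it was 588 CPM in RP1140A, 666 in RP1140B, 792 in RP1141A and 689 in RP1141B, and in DN3 autonomy 554 in RP1133, 343 in RP1134, 522 in RP1135, 498 in RP1137 and 603 in RP1138. The groups overlapped, with RP1138 above RP1140A, and the log2 change was -0.45 (SE 0.17, adjusted p = 0.0834), not past the threshold in edgeR. In DP the change was -1.03 (SE 0.29, adjusted p = 0.0849), between turnover libraries at 31.3 to 52.4 CPM and autonomy libraries at 17.0 to 31.4 CPM. From DN3 to DP Myc fell by 4.02 (SE 0.23, adjusted p = 9.25e-10 in edgeR's quasi-likelihood test) in turnover and by 4.61 (SE 0.21, adjusted p = 3.42e-11) in autonomy.

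Of the 10 Myc network genes, 1 fell in DN3 autonomy, against 8.35% of all genes tested. This gene was Mxd4, an antagonist of Myc, which fell by 1.67 (SE 0.43, adjusted p = 0.0219 in edgeR's quasi-likelihood test). It was 33.2 to 42.8 CPM in DN3 turnover and 3.64 to 25.2 CPM in DN3 autonomy, without overlap. Its difference between the stages passed at 2.06 (SE 0.49, adjusted p = 0.0165 in edgeR). From DN3 to DP it rose by 1.28 (SE 0.36) in turnover and 3.34 (SE 0.35) in autonomy. The other network genes that rose from DN3 to DP were Mlx and Mga, at 0.57 and 0.76 in turnover and 0.69 and 0.98 in autonomy. Mxi1 (1.33) and Mxd1 (2.17) also rose in autonomy. Max, the partner of Myc, fell by 0.71 in turnover, and Mycn fell by 2.40 in autonomy.

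The 42 genes are spread over 17 chromosomes, with 8 of them on chromosome 11. In the GENCODE M21 annotation, 8 of the 42 (19.0%) contain genes of small nucleolar RNAs, 22 in all, against 198 of 11307 protein-coding genes tested (1.75%). These 8 host genes are Nop56 with 5, Nop58 with 4, Ncl, Wdr43 and Gnl3 with 3 each, Tsr1 with 2, and Dkc1 and Odc1 with 1 each. All 8 fell from DN3 to DP in both conditions, as did 39 of all 42 genes in turnover and 41 in autonomy. Exons of 18 of the 42 overlap a gene on the other strand, and no label says whether reads were counted by strand.

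The authors' deposited tables, made with DESeq2 on the same libraries, list 19 of the 42 genes as higher and none as lower in DN3 autonomy at an adjusted p under 0.05, among them all 16 of the calls above. The 3 further genes in the authors' deposited table are Dkc1, Gar1 and Npm1. For DP the authors' deposited table lists 6 as higher, the 4 above with Wdr12 (log2 change 0.46) and Nop16 (1.06), and Utp20 as lower (-1.53, adjusted p = 0.00695).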

How the data were processed

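RNA-seq of DN3 and DP thymocytes from 28-day thymus grafts was analysed in 4 groups taken from the titles. The authors deposited raw read counts per Ensembl gene; the submitters' processing notes name HISAT2, featureCounts, FastQC and DESeq2 on GRCm38 (mm10), and no source used here gives their versions or settings. They also deposited 1 DESeq2 table per stage, in which, per the file headers, the base mean is a signal of normalized counts, changes and their errors are log2 values, the test statistic is a score and p-values are raw and adjusted. These tables supplied gene names and were compared only for calls.

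From the counts, CPM and tests were computed in R 4.3.3 with edgeR 4.0.16 (TMM, filterByExpr, glmQLFit and glmQLFTest, Benjamini-Hochberg adjustment over all genes tested, threshold 0.05). Each stage was fitted alone for autonomy against turnover, and all 18 libraries together for the other 3 comparisons. Within groups no 2 libraries agreed within sampling noise (chi-square per degree of freedom at least 23.65). Scripts were tested on simulated counts. Total counts ran from 5032273 to 24191044. Alternatives used DESeq2 1.42.0, voom in limma 3.58.1, other scaling, no filter, summed A and B libraries, other sets of libraries, the RP label as a block and each library left out. Positions and exon lengths are from GENCODE M21 (GRCm38), promoters from RefSeq GRCm38.p6.

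The 42 genes and all lists were chosen with earlier results of these data known. Values in every library are given for genes past the threshold in DN3 (at most 12 by size of change, ties kept) or DP, in the difference, the 3 largest falls per condition between stages, and the largest change of each role in DN3. Of other lists, counts and up to 3 of the largest changes past the threshold in each direction are given, and of the Myc network Myc and those that passed.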

Additional observations from a re-analysis of the deposited data

Results flagged for a closer look

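Of 168 gene and group combinations, 7 held a library far from the rest of its group by Dixon's test, and chance flags about 1 in 20. In DN3 turnover RP1141A had the highest Nop10 level, 354 CPM. In DN3 autonomy RP1138 had the highest Noc2l level, 194 CPM, and RP1135 the lowest Prmt5 level, 360.3 CPM. In DP turnover RP1141A had the lowest Ebna1bp2 level, 49.8 CPM. In DP autonomy RP1136 had the lowest Nop56 level, 465 CPM, RP1138 the highest Nop2 level, 68.6 CPM, and RP1135 the highest Ddx18 level, 93.8 CPM. The response to autonomy differed between DP and DN3 by a test of the difference for Npm1, at -0.87 on the log2 scale (SE 0.21, adjusted p = 0.0194 in edgeR's quasi-likelihood test), and for Utp20, at -2.19 (SE 0.48, adjusted p = 0.0104). In both genes the change was above 0 in DN3 and below 0 in DP.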

How the results depend on the processing

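No called change of the 42 genes turned direction under any alternative run. Over all genes, the number past the threshold in DN3 was 1602, against 507 with A and B libraries summed, 1006 with all 18 libraries in 1 fit and 811 to 1784 with 1 library left out. Of the 42 genes, the 16 that rose in DN3 became 2, 9 and 5 to 19 in these fits. In DP the 178 genes past the threshold became 736 with DESeq2, 434 with voom, 16 with summed libraries, 279 with all 18 libraries and 33 to 252 with 1 left out. The 4 of the 42 that rose in DP became 0 with summed libraries and 0 to 3 with 1 left out, and 1 of the 42 (Utp20) fell with DESeq2 and 1 with all 18 libraries. For the difference between stages the 633 genes became 1037 with DESeq2 and 145 with summed libraries. From DN3 to DP in turnover 4021 became 2170 with summed libraries, and 38 of the 42 genes still fell. From DN3 to DP in autonomy Wdr12 rose as 1 gene of 42 with DESeq2, as 1 with the libraries of that condition alone and in 0 to 1 with a library left out. Summing leaves fewer turnover libraries, and the labels do not say what A and B mark. The cause of these shifts was not tested.

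The RP numbers were not used to pair the samples in the main fits, because the labels do not say what they mark. Deviations of same-numbered DN3 and DP libraries correlated at 0.001 to 0.052, and those of differently numbered libraries at -0.063 to 0.056. Not every library correlated best with its own number. Such correlations cannot tell whether libraries with the same number share an animal or graft. With the RP number as a replicate block, 288 genes passed in the difference, and 1 of the 42 genes was lower there, Npm1, with Utp20 at -1.77 (adjusted p = 0.0528 in edgeR). With the replicate block 39 of the 42 genes fell from DN3 to DP in turnover, of 3226 genes past the threshold, and 41 in autonomy, of 4734. For the level per kilobase, 85 of 168 values moved by more than 1 SD when the longest transcript replaced all exons. Rrp12 had no read in 4 DP libraries, among them the deepest of the 18, and reads in shallower ones.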
